A study of Homo sapiens with 24 samples.

Results

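The mitosis and kinetochore genes described here are 50 named genes whose products carry a cell through chromosome segregation. They are a list of gene names, and no measured value enters the rule. The names were, however, chosen with earlier results of these data known. The deposited organoid table held all 50, out of 61544 listed genes. The deposited table of neural progenitor cells (NPCs) held 44, out of 10221, and NEK2, ESPL1, CENPF, CKAP2, KIF14 and KIF20A were not analysed there. All of them passed the filter on low counts in the table that listed them. Levels are given in CPM, counts scaled to the size and make-up of each library, and changes as log2 fold changes. A gene "rose" or "fell" where its adjusted p was under 0.05 in edgeR's quasi-likelihood test, adjusted by the method of Benjamini and Hochberg over all tested genes of the table.

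Mitosis starts when CDK1 bound to cyclin A or cyclin B is activated, and it ends when the anaphase-promoting complex marks the cyclins and securin for destruction. In between, kinetochores are assembled on the centromere and attach to spindle microtubules, the spindle checkpoint holds anaphase back until the attachments are made, and the central spindle and cytokinesis machinery part the daughter cells. Most of these genes are transcribed in a wave late in the cell cycle, by the MuvB complex with MYBL2 and FOXM1, and they are low in resting cells. In the developing brain they mark dividing neural progenitors, and inherited loss of several of them, among them ASPM, is a cause of small brain size.

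The libraries came from the established human embryonic stem cell line H9, which had been transduced with a lentivirus at the stem cell stage (multiplicity of infection 20), selected with puromycin (1 µg/ml), and then differentiated. All groups, the controls included, carried a hairpin virus and had passed the drug. Hairpins sh1 and sh4 target KDM2A, a lysine demethylase of histone H3, and NC is a scrambled hairpin. The NPCs had 5 libraries each of sh1, sh4 and NC, and the day 30 cerebral organoids, neural tissue cultures grown as aggregates, had 3 of each. The labels do not say whether the libraries of a group were separate cultures, so p-values measure the spread between these libraries, which may be technical. The NC libraries are shared by both hairpin comparisons, so their results are not independent of each other.

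KDM2A, the target of both hairpins (chr11:67119269-67258087, GRCh38, plus strand), was measured first. KDM2A had 98.1, 89.2, 94.7, 89.1 and 89.1 CPM in sh1 NPCs, 92.6, 95.7, 102, 93.8 and 91.3 CPM in sh4 NPCs, and 198, 183, 202, 185 and 163 CPM in NC NPCs. Every hairpin library lay below every NC library, with a log2 fold change of -1.02 (95% interval -1.13 to -0.90, adjusted p = 5.13e-12) for sh1 and -0.97 (95% interval -1.08 to -0.85, adjusted p = 7.36e-12) for sh4. KDM2A had 111, 117 and 103 CPM in organoids labelled sh1, 105, 95.5 and 103 CPM in those labelled sh4, and 99.9, 105 and 96.8 CPM in NC organoids. These organoid groups overlapped. The log2 fold change was 0.14 (95% interval -0.02 to 0.29, adjusted p = 0.127) for sh1 and 0.01 (95% interval -0.14 to 0.16, adjusted p = 0.926) for sh4, and scaling by library size alone gave -0.27 (adjusted p = 0.00871) for sh4. Organoid results below therefore belong to the libraries labelled sh1 and sh4, and no direction there rests on a measured loss of KDM2A.

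Libraries held 12733888 to 20185306 counts in the NPC table and 15899243 to 18853737 in the organoid table. Nearly every gene of the NPC table, 99.3%, passed the test between sh1 and NC, so the table is taken here as a selection of genes, made in a way not given in the sources used here. NPC levels are relative to the listed genes, and the NPC totals are not library depth. In the organoids, markers of other cell types moved with the labels. Summed mesenchyme markers, 13 genes, ran from 22331 to 25254 CPM with sh1, 41850.0 to 51371 CPM with sh4 and 3225 to 4702 CPM with NC. Summed neural progenitor markers, 15 genes, ran from 3068 to 3204, 1514 to 1966 and 4066 to 4666 CPM in the same order, with HES5 at a mean of 0.72 CPM and TBR1, a cortical neuron marker, at 0.303 CPM under sh4. Of these lists, 12 mesenchyme markers rose with sh1, and 10 rose and 1 fell with sh4, while 11 progenitor markers fell and 1 rose with sh1, and 13 fell and 1 rose with sh4. Summed neuron markers ran from 1430.0 to 1954, 254 to 1013 and 3440.4 to 3701 CPM, and 6 of 15 tested fell with sh1 and 14 with sh4. Summed choroid plexus markers, 11 genes, ran from 1064 to 2281, 4374 to 9179 and 149 to 299 CPM, and summed pluripotency markers, 12 genes, from 191 to 217, 184 to 238 and 1115 to 1602 CPM, with UTF1 at 0 CPM in both hairpin groups. Of the choroid plexus markers 8 rose with sh1, and 9 rose and 1 fell with sh4, and 12 of 12 pluripotency markers fell with each. Summed epithelium markers, 11 genes, ran from 577 to 799, 2259 to 3037.5 and 969 to 1099 CPM with sh1, sh4 and NC. They differed by label, as 5 fell and 0 rose with sh1, and 8 rose and 0 fell with sh4. Of all tested organoid genes, 25.1% rose and 21.6% fell with sh1, and 34.5% rose and 33.4% fell with sh4. In the NPCs, NES stood at 1768, 2694 and 2149 CPM and PAX6 at 28.5, 3.17 and 17.0 CPM with sh1, sh4 and NC, while SOX2, VIM, HES5 and SOX3 were not analysed there. Of 11 progenitor markers tested in the NPCs, 7 rose and 4 fell with sh1, and 8 rose and 3 fell with sh4, with summed levels of 2254 to 2535, 3219 to 3692 and 2497 to 2744 CPM. Summed mesenchyme markers of the NPCs, 10 genes, ran from 5568 to 6807, 6666 to 7574 and 7165 to 7835 CPM, although 8 of the 10 rose and 2 fell with sh1, and 9 rose and 1 fell with sh4. Of 9 neuron markers tested in the NPCs, 3 rose and 6 fell with sh1, and 3 rose and 3 fell with sh4. Their median log2 fold changes were -0.80 and -0.01. Of all tested NPC genes, 50.1% rose and 49.2% fell with sh1, and 44% rose and 44.1% fell with sh4. The part of these differences in the results below was not tested. In such bulk samples, fewer dividing cells and less mitotic RNA per cell cannot be told apart.

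Promoters of the genes shared sequence features that played no part in choosing them. RefSeq (GRCh38.p14) gave 50 windows of 300 bases, 250 before the transcript start, for 40 of the genes. The motif TTTGAA, known as the cell cycle homology region and read on either strand, was in 31 of these 50 windows, or 62%, against 15.2% of all 35116 promoter windows. The motif CCAAT, the letters that NF-Y binds, read on either strand, was in 38 windows, or 76%, against 34.6% of all windows. Both were in 26 windows, or 52%, against 5.9%. A match describes the letters and not a bound site. Shown with both motifs in capitals are 4 windows. They are DLGAP5 (chr14:55191536-55191835, minus strand), with the highest log2 fold change with sh1 in NPCs, and PLK1 (chr16:23678639-23678938, plus strand), with the lowest in organoids. The others are CCNB2 (chr15:59104896-59105195, plus strand), with the motif CCAAT at 4 places, and ANLN (chr7:36389612-36389911, plus strand), with no CCAAT.
DLGAP5: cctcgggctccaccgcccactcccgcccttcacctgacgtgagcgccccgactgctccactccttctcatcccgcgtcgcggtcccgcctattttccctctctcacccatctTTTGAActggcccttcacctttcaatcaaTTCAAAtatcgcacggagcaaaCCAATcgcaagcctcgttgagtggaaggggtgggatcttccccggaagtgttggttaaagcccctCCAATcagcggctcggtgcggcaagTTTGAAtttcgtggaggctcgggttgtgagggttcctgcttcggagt
PLK1: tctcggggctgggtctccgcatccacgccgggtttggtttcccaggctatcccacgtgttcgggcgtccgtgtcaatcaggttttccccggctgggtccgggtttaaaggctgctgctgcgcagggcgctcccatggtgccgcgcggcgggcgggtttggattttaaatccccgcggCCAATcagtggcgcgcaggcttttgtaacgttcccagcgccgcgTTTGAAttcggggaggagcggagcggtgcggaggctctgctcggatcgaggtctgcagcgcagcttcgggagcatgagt
CCNB2: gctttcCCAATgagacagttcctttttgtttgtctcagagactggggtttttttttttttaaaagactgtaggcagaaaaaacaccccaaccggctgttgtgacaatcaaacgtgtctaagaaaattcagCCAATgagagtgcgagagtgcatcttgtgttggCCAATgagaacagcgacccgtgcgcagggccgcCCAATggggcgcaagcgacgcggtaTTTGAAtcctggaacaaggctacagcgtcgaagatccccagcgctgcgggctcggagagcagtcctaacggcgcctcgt
ANLN: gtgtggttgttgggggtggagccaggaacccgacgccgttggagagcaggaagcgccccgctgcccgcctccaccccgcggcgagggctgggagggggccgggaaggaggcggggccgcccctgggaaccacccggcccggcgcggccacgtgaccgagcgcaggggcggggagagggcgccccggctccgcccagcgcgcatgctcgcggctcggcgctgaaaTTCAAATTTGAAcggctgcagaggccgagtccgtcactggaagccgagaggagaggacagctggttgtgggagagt
Capitals include each motif in its reverse form, TTCAAA or ATTGG. In the ANLN window the forward and the reverse TTTGAA stand side by side. In the NPCs, the 25 members with a TTTGAA window had median log2 fold changes of 0.50 with sh1 and 0.39 with sh4. The 9 whose windows lacked it had 0.72 and 0.58. In the organoids the medians were -0.42 with sh1 and -0.75 with sh4 for 28 members with it, against -0.63 and -0.71 for 12 without. These medians are descriptions with no test.

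In the NPCs most of the genes rose with the hairpins. With sh1, 40 of 44 rose and 4 fell, where 50.1% of all 9860 tested genes rose and 49.2% fell. With sh4, 36 rose, 4 fell and 4 did not pass the test, where 44% of all genes rose and 44.1% fell. The same 36 rose with both hairpins, where 42.5% of all genes did. The same 4 fell with both, FOXM1, PLK1, CDC25B and MKI67, where 43.1% of all genes did. The median log2 fold change of the members was 0.54 with sh1 and 0.41 with sh4, beside 0.11 and 0.03 over all tested genes. Changes were small in size. DLGAP5 alone passed a log2 fold change of 1, with sh1, where 6.31% of all genes did, and it fell short of 1 without NPC sh1 replicate 2 and under scaling by library size alone. None did with sh4, where 6.55% of all genes rose that far. Pluripotency markers moved with the hairpins in the NPCs too. Of 11 tested, 10 rose and 1 fell with each hairpin, and their summed level ran from 2417 to 2537 CPM with sh1, 2326 to 2503 CPM with sh4 and 1441 to 1579.6 CPM with NC. Their part in the rise was not tested. With library size alone, the median of all genes moved by -0.14 and those of the members were 0.40 and 0.26. That scaling lost the calls of CENPE, KNL1, TOP2A and BUB3 with sh1. With sh4 it lost those of NDC80, KIF4A, ASPM, INCENP and CDC25C, while KNL1 and TOP2A passed.

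Summed over the 44 genes, NPCs held 8141, 8894, 8265, 8656 and 8662 CPM with sh1, 7941, 7892, 7823, 8119 and 8083 CPM with sh4, and 6259, 6621, 6133, 6502 and 6815 CPM with NC. Every hairpin library lay above every NC library. By gene, all sh1 libraries lay above all NC libraries for 36 genes and below them for 4, where 76.6% of all genes had groups that did not overlap. With sh4 the numbers were 33 and 4, where 72.8% of all genes did not overlap.

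In the organoids most changes were falls. With the label sh1, 25 of 50 genes fell and 0 rose by edgeR's test (0 also at an unadjusted p under 0.05 and with DESeq2), where 21.6% of all 19704 tested genes fell and 25.1% rose. With the label sh4, 41 fell and CDC25B alone rose, where 33.4% of all genes fell and 34.5% rose. The same 25 fell with both labels, where 18% of all genes did. The median log2 fold change of the members was -0.43 with sh1 and -0.75 with sh4, beside 0.02 and -0.01 over all tested genes. PLK1 alone fell past a log2 fold change of -1 with sh1, where 7.92% of all genes did. With sh4, 12 genes fell that far, where 15.5% of all genes did, and the number was 4 without sh4 replicate 1 and 25 with library size alone, under which the median of all genes shifted by -0.27 with sh4 and that of the members was -1.02, while 37% of all called genes were rises, against 50.8% with the main scaling. The library labelled sh1 replicate 2 stood nearer to NC than its group. Without it, 39 genes fell with sh1, and without sh1 replicate 1 or 3, 18 did. The marker lists above moved with the same labels, mesenchyme and choroid plexus markers up and progenitor and neuron markers down. Epithelium markers differed by label, with 5 of 11 lower with sh1 and 8 of 11 higher with sh4. The part of these lists in the falls was not tested.

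Summed over the 50 genes, organoids held 2425, 3181 and 2307 CPM with the label sh1, 1801, 2406 and 2106 CPM with sh4, and 3596, 3262 and 3847 CPM with NC. Each library labelled sh1 or sh4 lay below each NC library. By gene, all sh1 libraries lay below all NC libraries for 29 genes and above them for 0, where 62.1% of all genes did not overlap. For sh4 the numbers were 44 below and 2 above, CDC25B and ANLN, where 73.1% of all genes did not overlap. The share of counts on mitochondrial genes was 3.14 to 3.29% with sh1, 5.05 to 6.02% with sh4, and 3.07 to 3.5% with NC, and the 10 most abundant genes took 6.73 to 7.41%, 11.8 to 14.4% and 5.38 to 5.81%. Their part in these differences was not tested.

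**Figure D1:**
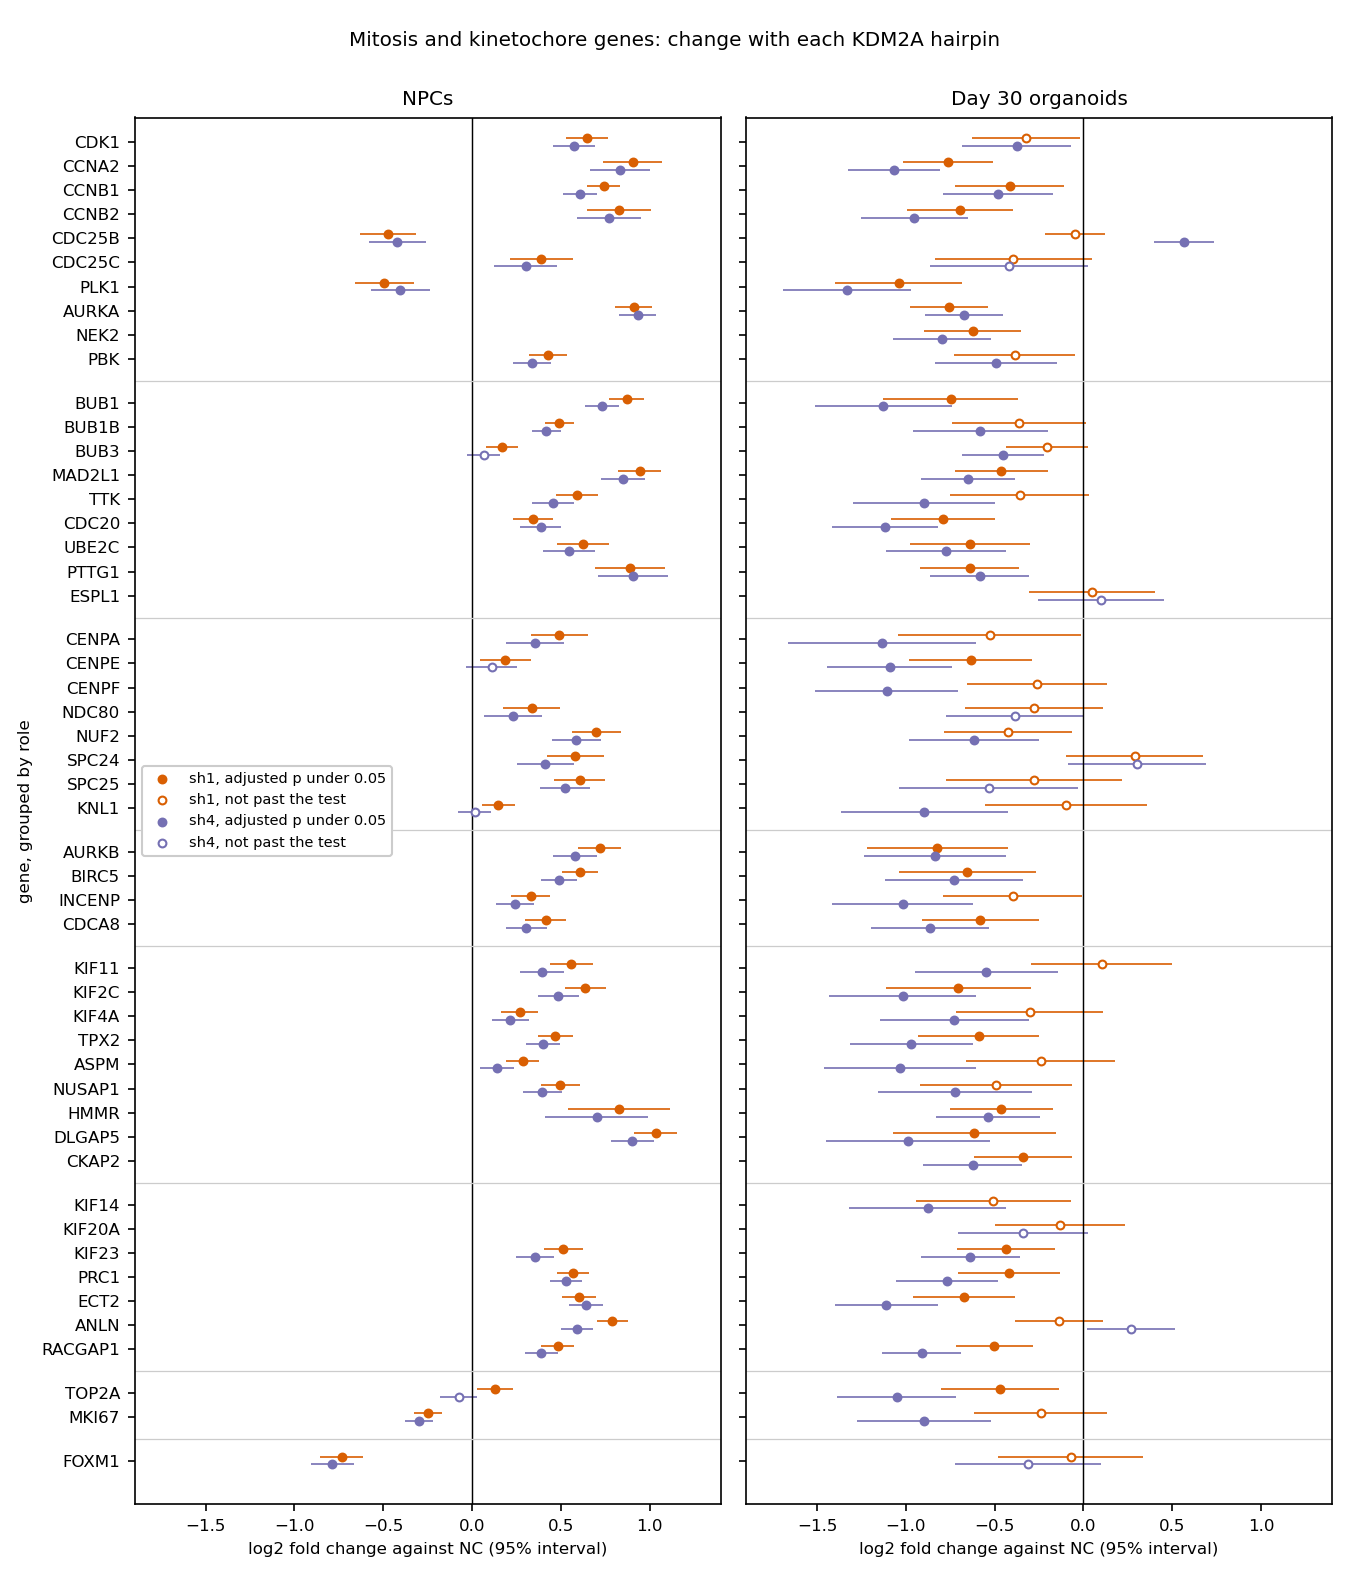
Log2 fold change of each gene against NC (points) with its 95% interval (bars) for sh1 and sh4, in NPCs (left) and day 30 organoids (right), genes grouped by role down the page; filled points passed adjusted p 0.05. Points of the NPC panel lie right of 0 except FOXM1, PLK1, CDC25B, MKI67 and TOP2A with sh4, and most points of the organoid panel lie left of 0.

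**Figure D2:**
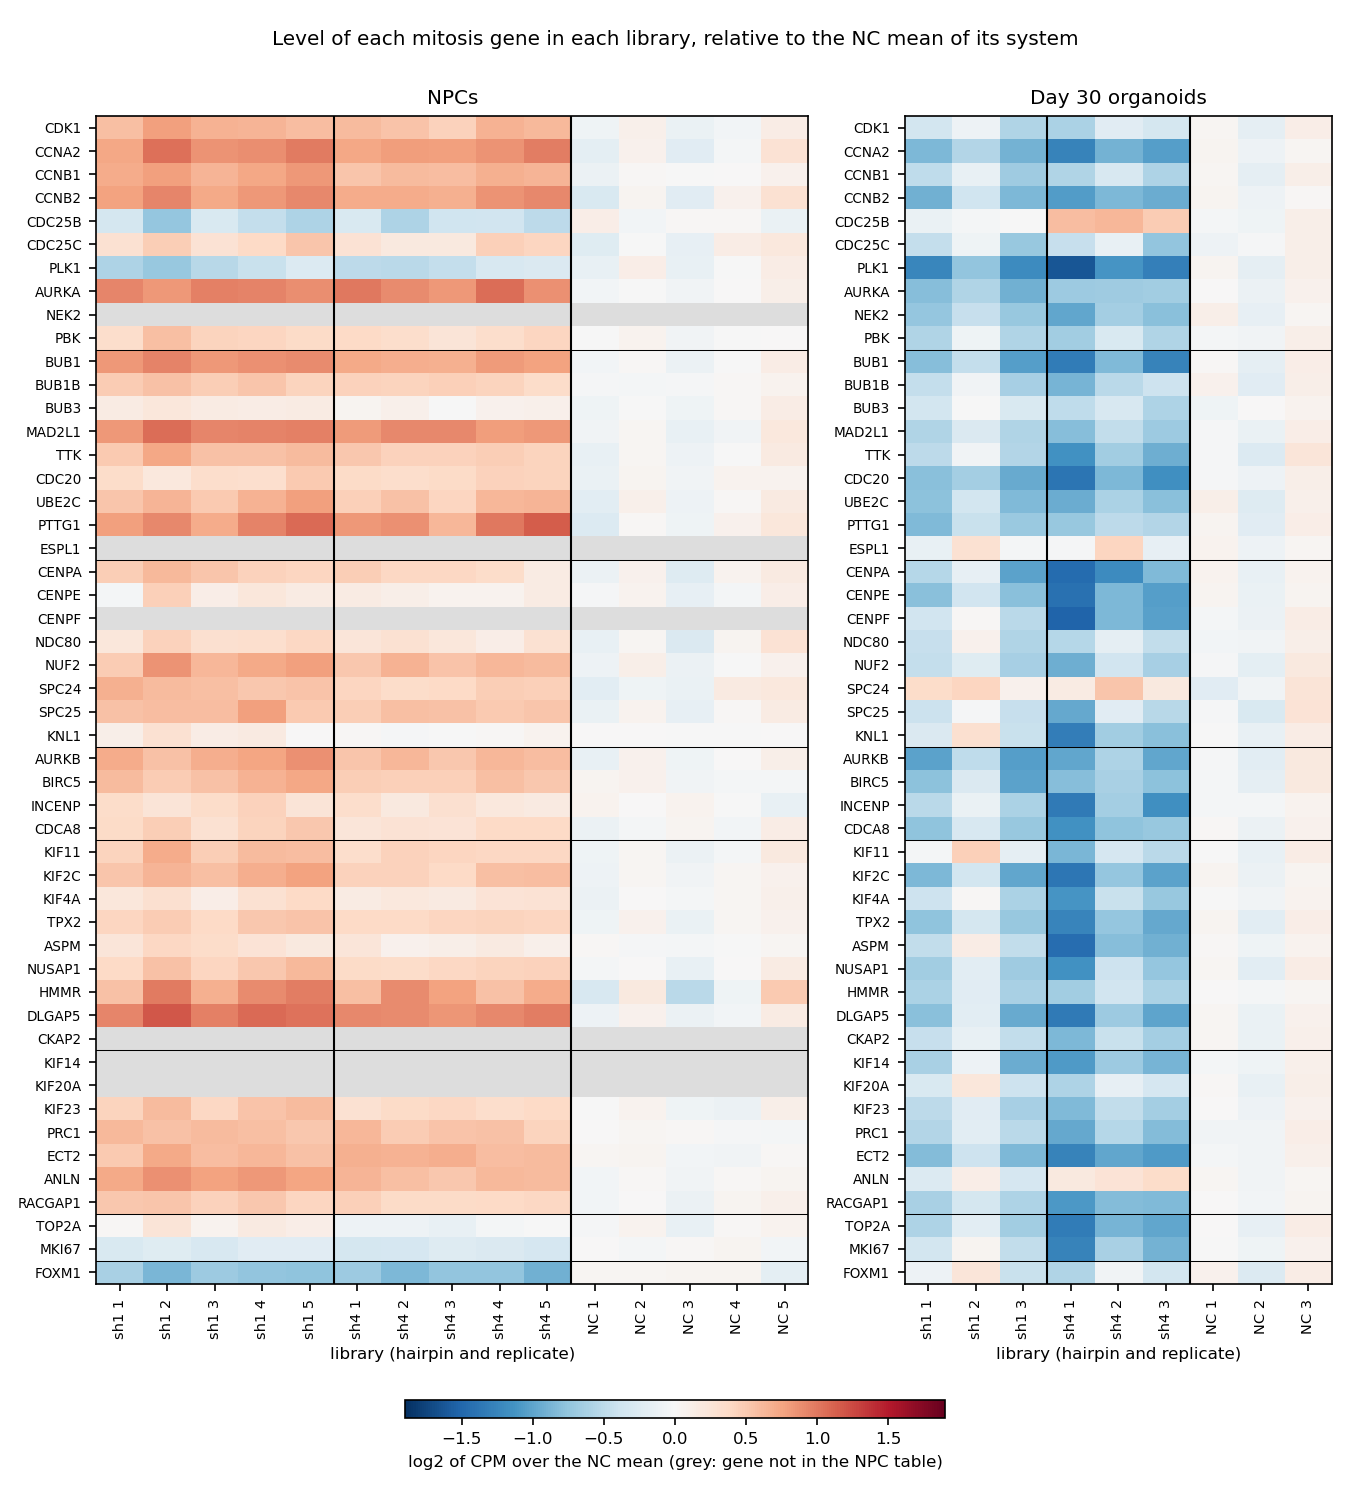
Level of each gene in each library as log2 of CPM over the NC mean of its system, with sh1, sh4 and NC libraries as columns from left to right and black lines between groups and roles. NPC hairpin columns are red for most genes, organoid columns labelled sh1 and sh4 are blue for most, and the organoid column sh1 replicate 2 is the palest of its group.

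Kinases, cyclins and phosphatases of mitotic entry showed both the rule and its exceptions. Counts in this and the next roles stand beside shares of all genes. In the NPCs 50.1% rose with sh1 and 44% with sh4, and in the organoids 21.6% and 33.4% fell. Since 99.3% of all NPC genes passed with sh1, a pass there says little beyond its direction. Of 9 measured in the NPCs, 7 rose with each hairpin and 2 fell, PLK1 and CDC25B. CDK1, the kinase that drives entry, was higher in all hairpin libraries. CDK1 had 227, 263, 242, 240.1 and 230.4 CPM in sh1 NPCs, 233, 225, 208, 243 and 235 CPM in sh4 NPCs, and 146, 164, 141, 149 and 169 CPM in NC NPCs. Its log2 fold change was 0.65 (95% interval 0.53 to 0.77, adjusted p = 4.73e-09) with sh1 and 0.57 (95% interval 0.45 to 0.69, adjusted p = 2.26e-08) with sh4. CCNB1 had 301, 317, 288, 308 and 325 CPM in sh1 NPCs, 265, 281, 276, 295 and 288 CPM in sh4 NPCs, and 171, 187, 184, 186 and 194 CPM in NC NPCs. CCNB1 encodes cyclin B1, the main mitotic partner of CDK1, and its hairpin libraries all lay above NC, with log2 fold changes of 0.74 (adjusted p = 3.26e-11) and 0.61 (adjusted p = 4.17e-10). CCNA2, cyclin A2, rose by 0.90 and 0.83 on the log2 scale, CCNB2, cyclin B2, by 0.83 and 0.77, and AURKA, the kinase of centrosomes and spindle poles, by 0.91 and 0.93. CDC25C, a phosphatase that activates CDK1, and PBK, a mitotic kinase, rose less, by 0.39 and 0.30, and by 0.43 and 0.34.

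PLK1, a kinase needed for entry, spindle assembly and cytokinesis, fell in NPCs and organoids. PLK1 had 84.8, 77.6, 88.5, 95.5 and 107 CPM in sh1 NPCs, 90.8, 89.9, 93.5, 103 and 106 CPM in sh4 NPCs, and 115, 139, 116, 127 and 141 CPM in NC NPCs. All hairpin libraries lay below all NC libraries, with log2 fold changes of -0.49 (95% interval -0.66 to -0.33, adjusted p = 1.23e-05) and -0.40 (95% interval -0.57 to -0.24, adjusted p = 0.000111). PLK1 had 31.3, 43.95 and 32.3 CPM in organoids labelled sh1, 23.8, 33.9 and 30.1 CPM in those labelled sh4, and 76.1, 65.6 and 79.3 CPM in NC organoids. These groups did not overlap with NC either, and the log2 fold changes, -1.04 (95% interval -1.40 to -0.68, adjusted p = 0.000625) with sh1 and -1.33 (95% interval -1.69 to -0.97, adjusted p = 5.67e-05) with sh4, were the lowest of the members in both organoid comparisons. The sh1 value did not reach -1 without NC replicate 3, sh1 replicate 1 or sh1 replicate 3. CDC25B, another activating phosphatase of CDK1, fell in the NPCs with both hairpins, with changes of -0.47 and -0.42 on the log2 scale. CDC25B had 47.8, 50.9 and 51.9 CPM in organoids labelled sh1, 78.0, 80.7 and 72.3 CPM in those labelled sh4, and 50.6, 49.0 and 56.2 CPM in NC organoids. Here the sh4 libraries stood above NC and sh1 overlapped with it. The log2 fold change was 0.57 (95% interval 0.40 to 0.74, adjusted p = 0.000102) with sh4 and -0.05 (95% interval -0.22 to 0.12, adjusted p = 0.622) with sh1.

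In the organoids 6 of the 10 genes of this role fell with sh1 and 8 with sh4. CDK1 had 64.8, 76.7 and 55.2 CPM in organoids labelled sh1, 54.1, 70.5 and 65.0 CPM in those labelled sh4, and 84.0, 73.0 and 89.4 CPM in NC organoids. The sh4 libraries lay below NC and the sh1 libraries overlapped with it, with log2 fold changes of -0.32 (95% interval -0.63 to -0.02, adjusted p = 0.0759) for sh1, which did not pass, and -0.38 (95% interval -0.68 to -0.07, adjusted p = 0.0323) for sh4. The sh4 call was lost without NC replicate 1, NC replicate 3, sh4 replicate 1 or sh4 replicate 3. CCNA2 had 48.6, 59.4 and 47.0 CPM in organoids labelled sh1, 36.4, 46.9 and 42.3 CPM in those labelled sh4, and 90.9, 81.9 and 90.4 CPM in NC organoids. CCNA2 did not overlap with NC and had the lowest log2 fold changes of the cyclins, at -0.76 (95% interval -1.02 to -0.51, adjusted p = 0.000529) and -1.07 (95% interval -1.32 to -0.81, adjusted p = 2.63e-05). CCNB1 had 68.3, 86.4 and 60.1 CPM in organoids labelled sh1, 64.0, 77.3 and 63.9 CPM in those labelled sh4, and 98.1, 85.2 and 103 CPM in NC organoids. Its sh1 libraries overlapped with NC through replicate 2, and its log2 fold changes were -0.42 (adjusted p = 0.0312) and -0.48 (adjusted p = 0.0106). The sh1 call was lost without NC replicate 1, NC replicate 3, sh1 replicate 1 or sh1 replicate 3. AURKA changed by -0.76 and -0.67, CCNB2 by -0.69 and -0.95, and NEK2, a kinase that lets centrosomes part, by -0.62 and -0.80, all past the test. PBK fell with sh4 (-0.49), a call lost without NC replicate 3 or sh4 replicate 3, and CDC25C passed with neither label (-0.39 and -0.42).

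**Figure D3:**
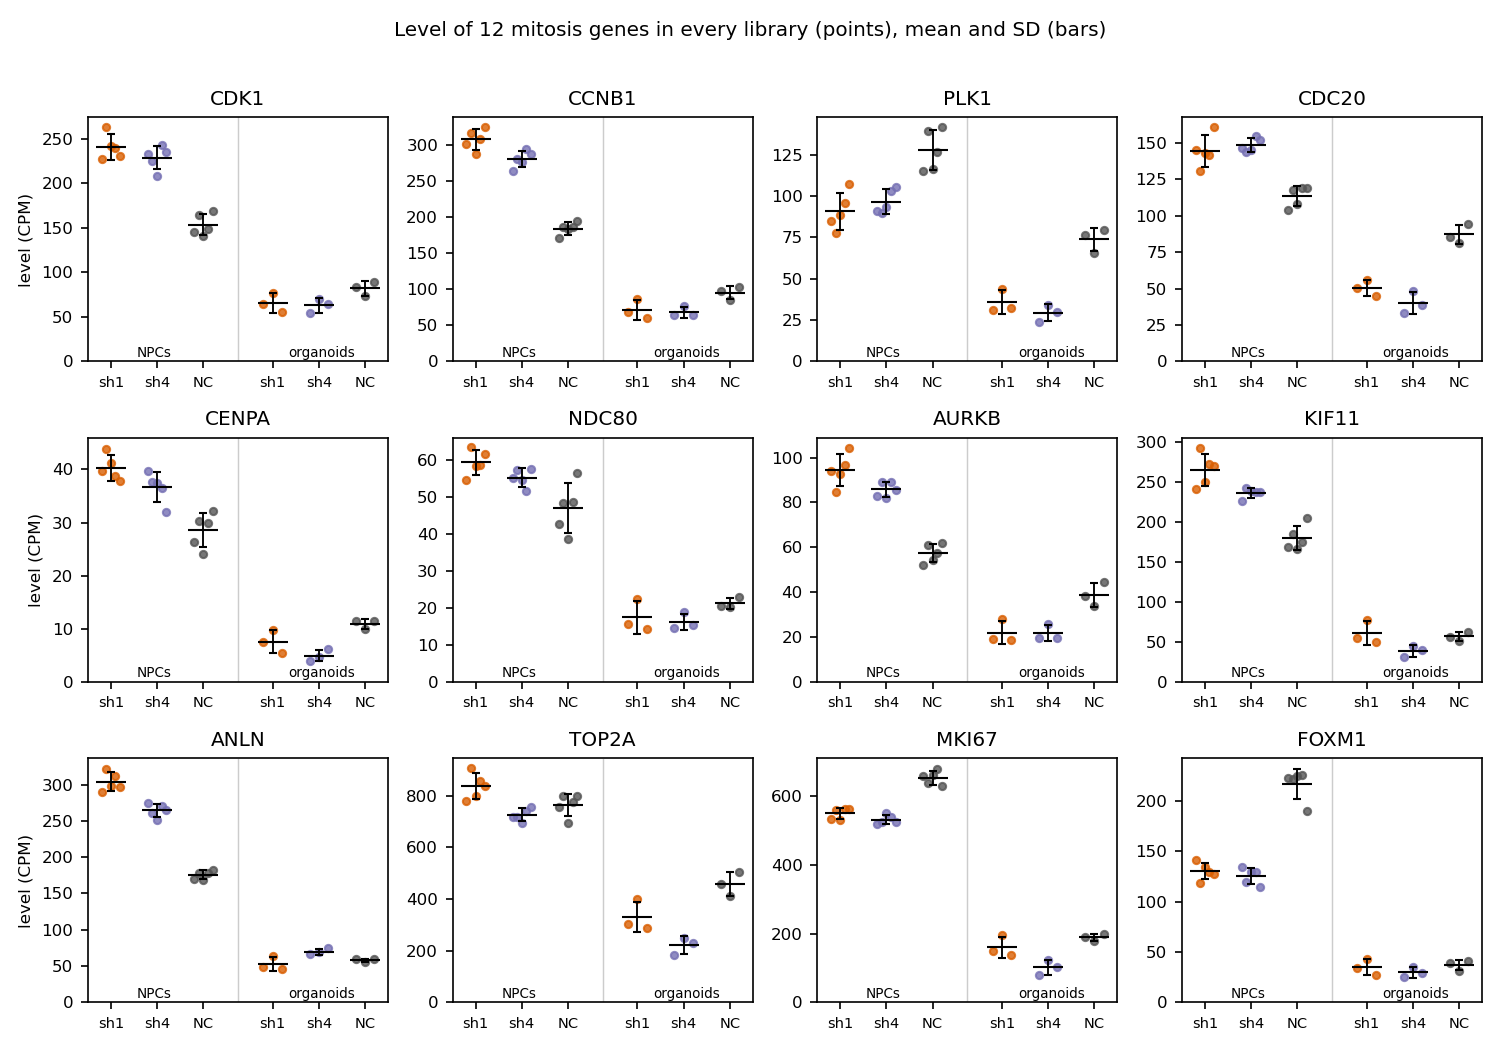
Level in CPM of 12 genes in each library (points), with the group mean and SD (bars), for sh1, sh4 and NC in NPCs and then in organoids. CDK1, CCNB1 and AURKB stand above NC in the NPC hairpin libraries and within or below the NC range in the organoids, while FOXM1 and MKI67 stand below NC in the NPC hairpin libraries.

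Spindle checkpoint and anaphase genes rose together in the NPCs, 8 of 8 with sh1 and 7 of 8 with sh4. MAD2L1, the checkpoint protein MAD2, had the largest log2 fold change of the role with sh1, 0.94 (95% interval 0.82 to 1.06, adjusted p = 3.68e-11), and 0.85 (95% interval 0.73 to 0.97, adjusted p = 1.25e-10) with sh4. BUB1, a checkpoint kinase at kinetochores, rose by 0.87 and 0.73. PTTG1, which encodes securin, the inhibitor that anaphase removes, rose by 0.89 and 0.90. TTK, the kinase MPS1, rose by 0.59 and 0.45, UBE2C, an enzyme that works with the anaphase-promoting complex, by 0.62 and 0.55, and BUB1B, a checkpoint inhibitor of that complex, by 0.49 and 0.42. CDC20 had 145, 131, 143, 142 and 161 CPM in sh1 NPCs, 147, 144, 146, 155 and 152 CPM in sh4 NPCs, and 104, 118, 108, 119 and 119 CPM in NC NPCs. CDC20 is the activator of the anaphase-promoting complex that the checkpoint restrains. Its hairpin libraries all lay above NC, with log2 fold changes of 0.34 (95% interval 0.23 to 0.46, adjusted p = 9.52e-06) and 0.39 (95% interval 0.27 to 0.50, adjusted p = 2.28e-06). BUB3, the partner of BUB1, rose with sh1 (0.17, adjusted p = 0.00147) and did not pass with sh4 (0.07, 95% interval -0.03 to 0.16, adjusted p = 0.161).

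The same role fell in the organoids, 5 of 9 with sh1 and 8 of 9 with sh4. CDC20 had 50.6, 55.8 and 44.9 CPM in organoids labelled sh1, 33.5, 48.2 and 38.7 CPM in those labelled sh4, and 85.8, 81.3 and 94.6 CPM in NC organoids. No library labelled sh1 or sh4 reached the NC level, and the log2 fold changes were -0.79 (95% interval -1.08 to -0.50, adjusted p = 0.00101) and -1.12 (95% interval -1.42 to -0.82, adjusted p = 5.05e-05). BUB1 had 40.4, 51.8 and 34.2 CPM in organoids labelled sh1, 28.2, 39.6 and 29.3 CPM in those labelled sh4, and 71.8, 63.2 and 77.2 CPM in NC organoids. BUB1 was below NC in all of these libraries too, with log2 fold changes of -0.75 (95% interval -1.13 to -0.37, adjusted p = 0.00549) and -1.13 (95% interval -1.51 to -0.74, adjusted p = 0.000257). MAD2L1 changed by -0.46 and -0.65, UBE2C by -0.64 and -0.77, and PTTG1 by -0.64 and -0.58, all past the test. TTK, BUB1B and BUB3 fell with sh4 (-0.90, -0.58 and -0.45) and did not pass with sh1 (-0.36, -0.36 and -0.20). ESPL1, separase, which cuts cohesin at anaphase, gave 0.05 (95% interval -0.31 to 0.40, adjusted p = 0.826) with sh1 and 0.10 (95% interval -0.26 to 0.45, adjusted p = 0.602) with sh4, and passed with neither.

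Kinetochore and centromere genes of the NPCs rose with sh1, 7 of 7, and 5 of 7 rose with sh4. CENPA had 39.7, 43.9, 41.2, 38.8 and 37.8 CPM in sh1 NPCs, 39.7, 37.6, 37.4, 36.5 and 32.0 CPM in sh4 NPCs, and 26.4, 30.3, 24.2, 29.9 and 32.2 CPM in NC NPCs. CENPA is the histone H3 variant that marks the centromere. Its sh1 libraries all lay above NC, sh4 replicate 5 fell within the NC range, and the log2 fold changes were 0.49 (95% interval 0.33 to 0.65, adjusted p = 8.78e-06) and 0.35 (95% interval 0.19 to 0.51, adjusted p = 0.0003). NDC80 had 54.6, 63.3, 58.2, 58.7 and 61.6 CPM in sh1 NPCs, 55.1, 57.3, 54.5, 51.4 and 57.5 CPM in sh4 NPCs, and 42.5, 48.3, 38.7, 48.6 and 56.5 CPM in NC NPCs. NDC80 is the microtubule-binding subunit of the NDC80 complex. NC replicate 5 lay within the range of the hairpin libraries, and the log2 fold changes were 0.34 (95% interval 0.17 to 0.50, adjusted p = 0.000483) and 0.23 (95% interval 0.07 to 0.39, adjusted p = 0.00913). The other subunits of the complex rose more, NUF2 by 0.70 and 0.59, SPC25 by 0.61 and 0.52, and SPC24 by 0.58 and 0.41, though these differences between subunits were not tested. CENPE, a kinesin of kinetochores, and KNL1, the scaffold that recruits BUB1, rose slightly with sh1 (0.19 and 0.15) and did not pass with sh4, at 0.11 (95% interval -0.03 to 0.25, adjusted p = 0.137) and 0.02 (95% interval -0.08 to 0.11, adjusted p = 0.74). The CENPE call was lost without sh1 replicate 2. With library size alone KNL1 was at -0.13 with sh4 (adjusted p = 0.0118).

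In the organoids 1 of 8 genes of this role fell with sh1, CENPE, and 5 with sh4. CENPE had 38.1, 51.6 and 38.4 CPM in organoids labelled sh1, 24.7, 36.6 and 31.9 CPM in those labelled sh4, and 68.8, 61.1 and 69.1 CPM in NC organoids. CENPE libraries labelled sh1 and sh4 all lay below NC, with log2 fold changes of -0.63 (95% interval -0.98 to -0.29, adjusted p = 0.00777) and -1.09 (95% interval -1.44 to -0.74, adjusted p = 0.000172). CENPA had 7.51, 9.78 and 5.37 CPM in organoids labelled sh1, 3.96, 4.76 and 6.11 CPM in those labelled sh4, and 11.4, 9.87 and 11.4 CPM in NC organoids. CENPA also lay below NC in all of them, but with sh1 the log2 fold change, -0.53 (95% interval -1.04 to -0.01, adjusted p = 0.0862), did not pass, while with sh4 it was -1.14 (95% interval -1.67 to -0.61, adjusted p = 0.00183). CENPF had 151, 198 and 136 CPM in organoids labelled sh1, 67.5, 107 and 94.9 CPM in those labelled sh4, and 189, 179.9 and 213 CPM in NC organoids. CENPF, a large protein of the outer kinetochore, overlapped with NC in the sh1 libraries and lay below it in the sh4 libraries, with -0.26 (95% interval -0.66 to 0.13, adjusted p = 0.247) and -1.11 (95% interval -1.51 to -0.71, adjusted p = 0.000371). KNL1 and NUF2 fell with sh4 (-0.90 and -0.62) and not past the test with sh1 (-0.10 and -0.42).

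NDC80 had 15.6, 22.5 and 14.2 CPM in organoids labelled sh1, 14.6, 18.8 and 15.3 CPM in those labelled sh4, and 20.4, 20.2 and 22.9 CPM in NC organoids. The sh4 libraries lay below NC, and neither label passed the test, at -0.28 (95% interval -0.67 to 0.11, adjusted p = 0.213) and -0.38 (95% interval -0.77 to 0.01, adjusted p = 0.0746). SPC25 passed with neither (-0.28 and -0.53). SPC24 had 10.9, 11.4 and 9.10 CPM in organoids labelled sh1, 9.55, 12.4 and 9.77 CPM in those labelled sh4, and 7.40, 8.16 and 10.2 CPM in NC organoids. SPC24, the partner of SPC25, overlapped with NC with both labels, and its log2 fold changes were above 0 without passing the test, 0.29 (95% interval -0.10 to 0.67, adjusted p = 0.196) and 0.30 (95% interval -0.08 to 0.69, adjusted p = 0.145).

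All 4 genes of the chromosomal passenger complex, which corrects wrong attachments and later directs cytokinesis, rose in the NPCs with both hairpins. AURKB had 93.9, 84.7, 92.5, 96.8 and 104 CPM in sh1 NPCs, 83.0, 89.0, 82.2, 89.3 and 85.7 CPM in sh4 NPCs, and 52.2, 60.9, 54.5, 57.4 and 61.9 CPM in NC NPCs. AURKB, the kinase of the complex, lay above NC in every hairpin library, with log2 fold changes of 0.72 (95% interval 0.60 to 0.84, adjusted p = 1.65e-09) and 0.58 (95% interval 0.46 to 0.70, adjusted p = 2.9e-08). BIRC5, survivin, rose by 0.61 and 0.49, CDCA8, borealin, by 0.42 and 0.30, and INCENP, the scaffold, by 0.33 and 0.24. The INCENP call with sh4 was lost with library size alone. In the organoids 3 of 4 fell with sh1 and 4 of 4 with sh4. AURKB had 19.1, 27.9 and 18.9 CPM in organoids labelled sh1, 19.7, 25.9 and 19.5 CPM in those labelled sh4, and 38.2, 34.0 and 44.4 CPM in NC organoids. These groups did not overlap with NC, and the log2 fold changes were -0.82 (95% interval -1.22 to -0.42, adjusted p = 0.00426) and -0.84 (95% interval -1.24 to -0.44, adjusted p = 0.00211). BIRC5 changed by -0.65 and -0.73 and CDCA8 by -0.58 and -0.86. INCENP fell with sh4 (-1.02) and did not pass with sh1 (-0.40, adjusted p = 0.0869).

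Spindle motors and microtubule proteins rose in the NPCs, 8 of 8 with each hairpin. DLGAP5, also called HURP, stabilises the microtubules that reach kinetochores. DLGAP5 had 235, 279.8, 239, 261 and 252 CPM in sh1 NPCs, 232, 229.9, 221, 232 and 242 CPM in sh4 NPCs, and 115, 131, 114, 119 and 139 CPM in NC NPCs. All hairpin libraries lay well above all NC libraries, and the log2 fold change, 1.03 (95% interval 0.91 to 1.16, adjusted p = 9.38e-12) with sh1 and 0.90 (95% interval 0.78 to 1.02, adjusted p = 4.66e-11) with sh4, was the highest of the members with sh1. KIF11 had 241, 293, 250.4, 273 and 270.5 CPM in sh1 NPCs, 227, 243, 239, 238 and 238 CPM in sh4 NPCs, and 169.6, 185, 166, 175 and 205 CPM in NC NPCs. KIF11, the motor that keeps spindle poles apart, also lay above NC throughout, with 0.56 (95% interval 0.44 to 0.68, adjusted p = 4.83e-08) and 0.39 (95% interval 0.27 to 0.52, adjusted p = 4.4e-06). HMMR, a spindle protein, rose by 0.83 and 0.70, KIF2C, a kinesin that takes microtubules apart, by 0.64 and 0.49, NUSAP1, a microtubule bundler, by 0.50 and 0.40, and TPX2, the activator of AURKA, by 0.47 and 0.40. KIF4A, a kinesin on chromosomes, rose by 0.27 and 0.22. ASPM, a spindle pole protein, rose by 0.28 and 0.14, and with library size alone its sh4 value was -0.00472 and did not pass.

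In the organoids 5 of 9 genes of this role fell with sh1 and 9 of 9 with sh4. DLGAP5 had 36.3, 54.8 and 32.6 CPM in organoids labelled sh1, 24.7, 39.1 and 31.5 CPM in those labelled sh4, and 65.0, 57.7 and 66.6 CPM in NC organoids. DLGAP5 lay below NC in every library of both labels, with log2 fold changes of -0.61 (95% interval -1.07 to -0.16, adjusted p = 0.0325) and -0.99 (95% interval -1.45 to -0.52, adjusted p = 0.00187). The sh1 call was lost without any 1 of NC replicates 1 and 3 and sh1 replicates 1 and 3. KIF11 had 55.4, 78.0 and 50.4 CPM in organoids labelled sh1, 31.2, 45.5 and 40.2 CPM in those labelled sh4, and 56.4, 51.5 and 63.0 CPM in NC organoids. The sh1 libraries of KIF11 spanned the NC values and the sh4 libraries lay below them, with 0.10 (95% interval -0.29 to 0.50, adjusted p = 0.657) and -0.55 (95% interval -0.95 to -0.14, adjusted p = 0.0212). The sh4 call was lost without NC replicate 3 or sh4 replicate 1. ASPM had 58.5, 88.7 and 58.3 CPM in organoids labelled sh1, 29.7, 45.9 and 42.9 CPM in those labelled sh4, and 81.9, 76.3 and 84.4 CPM in NC organoids. The sh1 libraries of ASPM spanned the NC values too, and its sh4 libraries lay below them. Its log2 fold changes were -0.24 (95% interval -0.66 to 0.18, adjusted p = 0.32) and -1.03 (95% interval -1.46 to -0.60, adjusted p = 0.000892). KIF2C, TPX2, HMMR and CKAP2, a spindle protein, fell with both labels, to log2 fold changes of -1.02, -0.97, -0.54 and -0.62 with sh4. With sh1 the HMMR call was lost without sh1 replicate 1 or 3, and that of CKAP2 also without NC replicate 1, NC replicate 3 or sh4 replicate 3. KIF4A and NUSAP1 fell with sh4 alone (-0.73 and -0.72).

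Genes of the central spindle and cytokinesis rose in the NPCs, 5 of 5 with each hairpin. ANLN had 290.3, 322, 297, 312 and 296 CPM in sh1 NPCs, 275, 261, 251, 270.0 and 265 CPM in sh4 NPCs, and 170.2, 178, 168, 179 and 183 CPM in NC NPCs. ANLN, anillin, which organises the contractile ring, lay above NC in every hairpin library, and each sh1 library lay above each sh4 library. Its log2 fold changes were 0.79 (95% interval 0.70 to 0.88, adjusted p = 4.05e-12) and 0.59 (95% interval 0.50 to 0.68, adjusted p = 1.99e-10). ECT2, the activator of RhoA at the division plane, rose by 0.60 and 0.64, PRC1, which bundles the central spindle, by 0.57 and 0.53, KIF23, the motor of centralspindlin, by 0.51 and 0.35, and RACGAP1, its partner, by 0.48 and 0.39. In the organoids 4 of 7 fell with sh1 and 5 of 7 with sh4. ECT2 had 41.1, 55.5 and 40.1 CPM in organoids labelled sh1, 30.0, 36.5 and 34.5 CPM in those labelled sh4, and 70.8, 69.7 and 77.5 CPM in NC organoids. ECT2 did not overlap with NC, with -0.67 (95% interval -0.96 to -0.39, adjusted p = 0.00212) and -1.11 (95% interval -1.40 to -0.82, adjusted p = 4.56e-05). RACGAP1, PRC1 and KIF23 fell with both labels, to -0.91, -0.77 and -0.64 with sh4, and KIF14, a kinesin of cytokinesis, with sh4 alone (-0.88). With sh1 the calls of PRC1 and KIF23 were lost without NC replicate 3, sh1 replicate 1 or sh1 replicate 3.

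ANLN had 48.5, 63.2 and 46.6 CPM in organoids labelled sh1, 66.0, 69.2 and 74.3 CPM in those labelled sh4, and 59.4, 55.3 and 59.4 CPM in NC organoids. ANLN was the exception of this role in the organoids. Its sh4 libraries all lay above NC, which scaling by library size alone turned to a log2 fold change of -0.00458, and its sh1 libraries overlapped with NC, and neither log2 fold change passed, -0.14 (95% interval -0.39 to 0.11, adjusted p = 0.339) with sh1 and 0.27 (95% interval 0.02 to 0.52, adjusted p = 0.0551) with sh4. The sh4 value did pass with DESeq2, with relative log expression scaling, and with the sh4 and NC libraries alone. KIF20A, another kinesin of cytokinesis, passed with neither label (-0.13 and -0.34).

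Of the 2 genes of mitotic chromosomes and the transcription factor FOXM1, TOP2A alone rose in the NPCs, with sh1. TOP2A had 780.1, 908, 799, 859 and 839.6 CPM in sh1 NPCs, 719.9, 718, 696, 743 and 758 CPM in sh4 NPCs, and 755, 799.5, 696, 778 and 800.5 CPM in NC NPCs. TOP2A, the topoisomerase that disentangles chromosomes, overlapped between hairpin and NC libraries. It rose with sh1 by 0.13 (95% interval 0.03 to 0.23, adjusted p = 0.0182) and did not pass with sh4 (-0.08, 95% interval -0.18 to 0.03, adjusted p = 0.154), and with library size alone the sh1 value was -0.00843 and did not pass. The sh1 call was also lost without NC replicate 3 or sh1 replicate 2, and the sh4 value passed without NC replicate 3. MKI67 had 532, 559, 531, 563 and 563 CPM in sh1 NPCs, 519, 523, 550.1, 539.6 and 524 CPM in sh4 NPCs, and 659, 637, 661, 679 and 629 CPM in NC NPCs. MKI67 encodes Ki-67, the coat protein of mitotic chromosomes that is widely used to count dividing cells. It lay below NC in every hairpin library, with log2 fold changes of -0.25 (95% interval -0.33 to -0.17, adjusted p = 6.73e-06) and -0.30 (95% interval -0.38 to -0.22, adjusted p = 6.97e-07). FOXM1 had 141, 119, 134, 129.5 and 128 CPM in sh1 NPCs, 134, 119.8, 129, 129 and 115 CPM in sh4 NPCs, and 223, 222, 224, 225 and 190.2 CPM in NC NPCs. FOXM1 (chr12:2857681-2877155, GRCh38, minus strand), an activator of many genes of the late cell cycle, also lay below NC throughout, and its log2 fold changes, -0.73 (95% interval -0.86 to -0.61, adjusted p = 9.02e-10) and -0.79 (95% interval -0.91 to -0.67, adjusted p = 2.99e-10), were the lowest of the members.

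In the organoids TOP2A fell with both labels and MKI67 with sh4. TOP2A had 305, 399 and 289.8 CPM in organoids labelled sh1, 183, 249.5 and 232 CPM in those labelled sh4, and 459.7, 411 and 507 CPM in NC organoids. TOP2A lay below NC in all of them, with -0.47 (95% interval -0.80 to -0.14, adjusted p = 0.0255) and -1.05 (95% interval -1.39 to -0.72, adjusted p = 0.000156), and the sh1 call was lost without any 1 of NC replicates 1 and 3 and sh1 replicates 1 and 3. MKI67 had 149, 196 and 137 CPM in organoids labelled sh1, 78.9, 124 and 102 CPM in those labelled sh4, and 189, 179.6 and 199.9 CPM in NC organoids. The MKI67 values overlapped with NC for sh1 and lay below it for sh4, with -0.24 (95% interval -0.61 to 0.13, adjusted p = 0.265) and -0.90 (95% interval -1.27 to -0.52, adjusted p = 0.000993). FOXM1 had 34.6, 43.5 and 27.7 CPM in organoids labelled sh1, 25.001, 35.4 and 29.1 CPM in those labelled sh4, and 39.3, 31.1 and 40.8 CPM in NC organoids. FOXM1 overlapped with NC for both labels and passed with neither, at -0.07 (95% interval -0.48 to 0.33, adjusted p = 0.766) and -0.31 (95% interval -0.72 to 0.10, adjusted p = 0.155).

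The hairpins were then set against each other. In the NPCs 9 of 44 genes were higher with sh1 than with sh4 by edgeR's test and 0 were lower (0 also at an unadjusted p under 0.05 and with DESeq2), where 13.1% of all genes were higher and 14.5% lower. These were CCNB1, BUB1, KNL1, KIF11, KIF2C, ASPM, KIF23, ANLN and TOP2A, and the largest differences were 0.20 (95% interval 0.10 to 0.31, adjusted p = 0.00375) for TOP2A and 0.20 (95% interval 0.11 to 0.29, adjusted p = 0.0011) for ANLN. Without any 1 of sh1 replicates 2, 4 and 5 or sh4 replicates 1, 2 and 3, the number was 3 or 4. In the organoids 12 of 50 were higher with sh1 than with sh4 and 2 were lower, where 25.1% and 24.8% of all genes were, so that these shares stood at or below those of all genes. CENPF (0.85, 95% interval 0.45 to 1.25, adjusted p = 0.00375), KNL1 (0.80, 95% interval 0.33 to 1.27, adjusted p = 0.0109) and ASPM (0.79, 95% interval 0.36 to 1.22, adjusted p = 0.00721) had the largest positive differences. The lower ones were CDC25B (-0.62, 95% interval -0.79 to -0.45, adjusted p = 0.000256) and ANLN (-0.40, 95% interval -0.65 to -0.15, adjusted p = 0.0135). The number of higher genes was 7 without sh1 replicate 2, 19 without sh4 replicate 2, and 28 with library size alone, which moved the median of all genes by 0.23 and gave 69.8% of all calls as higher, against 50.3% with the main scaling.

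The difference between the systems was tested itself, over all 24 libraries and the 10020 tested genes that both tables list. This difference was the mean log2 fold change of sh1 and sh4 against NC in the NPCs minus that in the organoids. It was above 0 and past the test for 41 of 44 genes and below 0 for 2, where 38.6% and 40% of all genes were. The median difference was 1.08 on the log2 scale, beside -0.02 over all genes, and 25 genes passed a difference of 1, where 13.7% of all genes did. The largest were CCNA2 (1.80, 95% interval 1.54 to 2.05, adjusted p = 3.15e-12), DLGAP5 (1.78, 95% interval 1.47 to 2.09, adjusted p = 1.33e-10), BUB1 (1.75, 95% interval 1.50 to 2.00, adjusted p = 4.21e-12) and AURKA (1.65, 95% interval 1.48 to 1.81, adjusted p = 9.01e-15). CDC25B (-0.69, 95% interval -0.91 to -0.48, adjusted p = 1.6e-06) and FOXM1 (-0.56, 95% interval -0.84 to -0.27, adjusted p = 0.000782) were the 2 below 0, and SPC24 (0.21, 95% interval -0.08 to 0.51, adjusted p = 0.166) did not pass. PLK1 and MKI67, whose mean log2 fold changes had the same sign in both systems, differed by 0.75 (adjusted p = 3.8e-05) and 0.31 (adjusted p = 0.0233). The lower mean was that of the organoids, and the MKI67 difference did not pass with library size alone (0.29). System, the table with its own gene selection, and the loss of KDM2A cannot be told apart here. That loss was measured in the NPCs and not, by the main scaling, in the organoids.

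**Figure D4:**
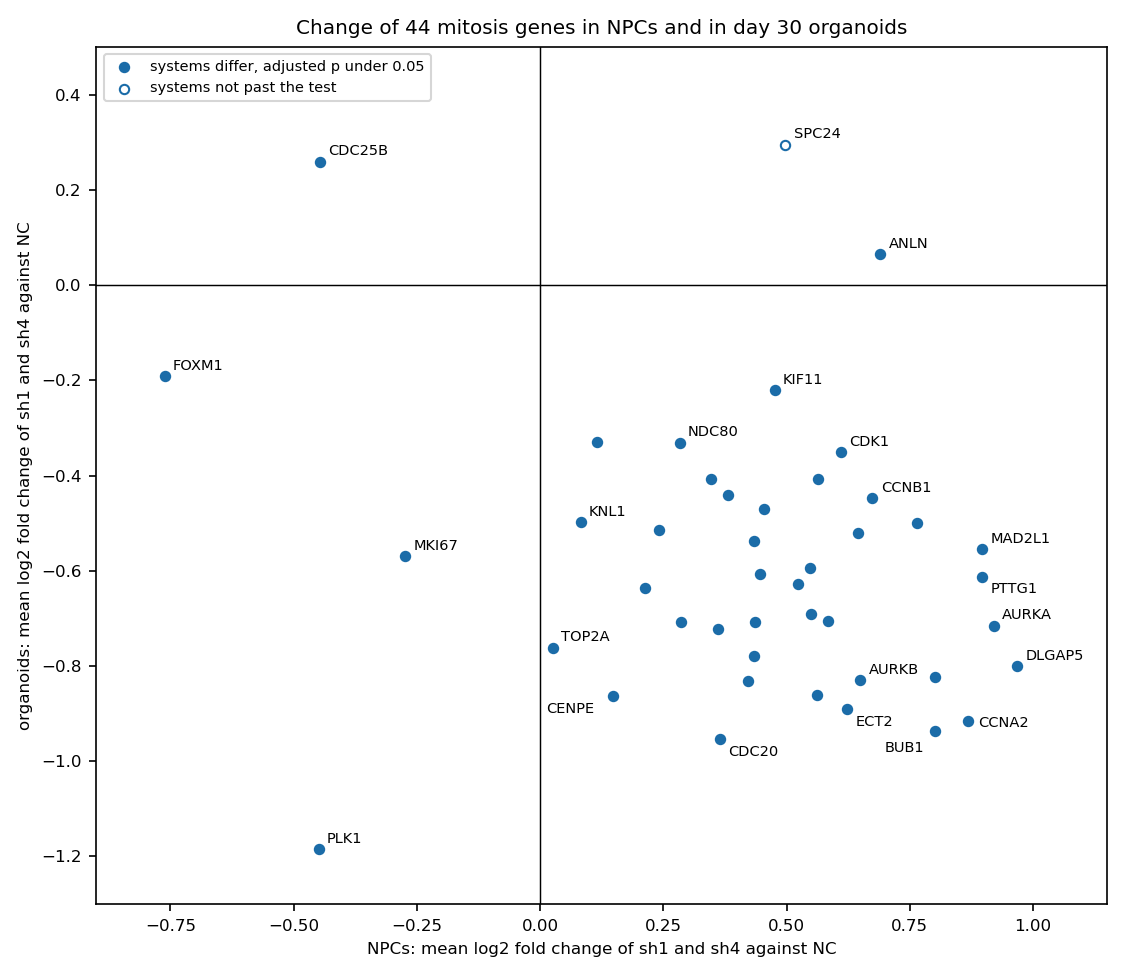
Mean log2 fold change of sh1 and sh4 against NC for 44 genes, in NPCs on the x axis and in organoids on the y axis; filled points differed between the systems at adjusted p 0.05. Most genes lie in the lower right, above NC in the NPCs and below it in the organoids, while PLK1, MKI67 and FOXM1 lie below 0 on both axes and CDC25B lies in the upper left.

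Levels in the NC libraries were set side by side as well. On a scale shared by both tables, the median log2 ratio of NPC NC over organoid NC was 0.47 for the 44 genes. Over all shared genes it was 0.03. By gene the ratio ran from -0.65 for PTTG1 to 1.96 for FOXM1. These are differences between tables as well as cells, and no test was made.

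Other genes of the same machinery, none of them members, were counted from lists. Of all tested genes in the NPCs, 50.1% rose and 49.2% fell with sh1, and 44% rose and 44.1% fell with sh4. In the NPCs inner kinetochore and centromere genes rose for 16 of 17 with sh1 and 12 of 17 with sh4, led by CENPW (1.38 and 1.25), CENPH (1.38 and 1.06) and CENPQ (1.24 and 1.00). Condensin and cohesin genes rose for 12 of 12 and 10 of 12, with NCAPG, a condensin subunit, at 0.87 and 0.80. Regulators of entry rose for 7 of 7 with each hairpin, among them the CDK subunits CKS1B (1.11 and 1.07) and CKS2 (1.00 and 0.95). Other spindle, centrosome and cytokinesis genes rose for 18 of 18 and 13 of 18, and outer kinetochore and checkpoint genes for 14 and 11 of 15, with 1 fall, MAD2L1BP (-0.80 and -0.73). Of the anaphase-promoting complex 8 of 11 rose and 3 fell with each hairpin. The MuvB, MYB and RB family regulators, which control transcription of the mitotic genes, rose for 8 and 7 of 10, MYBL2 among them (0.64 and 0.65).

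S phase genes, counted for comparison, rose for 34 of 34 with sh1 and 32 of 34 with sh4 in the NPCs, with medians of 0.78 and 0.60. CDC6, which loads the replicative helicase, stood at 1.58 and 1.37, CCNE2, cyclin E2, at 1.26 and 1.41, and RRM2, a subunit of ribonucleotide reductase, at 1.24 and 1.29. In the organoids 2 of 35 fell with sh1, and 17 fell and CCNE1, cyclin E1, rose (1.61) with sh4, with medians of -0.05 and -0.38. Of all genes tested there, 21.6% fell and 25.1% rose with sh1, and 33.4% fell and 34.5% rose with sh4. The share of S phase genes that fell with sh1 was below that of all genes. Of 7 tested inhibitors of the cell cycle 3 rose and 4 fell with sh1 in the NPCs, and 3 rose and 3 fell with sh4, shares near those of all genes. Of 9 in the organoids, 2 rose and 7 fell with sh1, and 2 rose and 5 fell with sh4. CDKN2B, a CDK inhibitor, rose with both labels (1.81 and 2.53), CDKN1C likewise (0.86 and 2.47), and CDKN2C fell with both (-1.49 and -1.03).

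In the organoids the other mitotic lists were mixed. The counts stand beside 21.6% of all genes lower and 25.1% higher with sh1, and 33.4% lower and 34.5% higher with sh4. With sh4, 19 of 24 other spindle, centrosome and cytokinesis genes fell, 11 of 14 condensin and cohesin genes fell and STAG1, a cohesin subunit, alone rose (0.57), and 10 of 17 inner kinetochore genes fell and CENPW alone rose (0.85). With sh1 these falls were 8, 3 and 5, beside 1, 2 and 1 rises, and the share of condensin and cohesin genes that fell was near that of all genes. Outer kinetochore and checkpoint genes rose for 3 of 17 and fell for 1 with sh1, and rose for 3 and fell for 7 with sh4. In the spindle list were FAM83D, a spindle protein (-0.76 with sh1 and -1.41 with sh4), STIL, a centriole protein (-0.98 and -1.32), and in the outer kinetochore list was SGO1, shugoshin, which guards centromeric cohesin (-0.61 and -1.16). Of the anaphase-promoting complex, 4 of 14 rose and 2 fell with sh1, and 7 rose and 4 fell with sh4, beside 25.1% higher and 21.6% lower of all genes with sh1 and 34.5% and 33.4% with sh4, and the largest change was that of its enzyme UBE2S (-1.10 and -1.77). Regulators of entry fell for 7 of 9 and 6 of 9, with CKS2 at -1.23 and -1.13. MuvB, MYB and RB family regulators rose for 4 of 14 with sh1, and rose for 4 and fell for 7 with sh4.

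**Figure D5:**
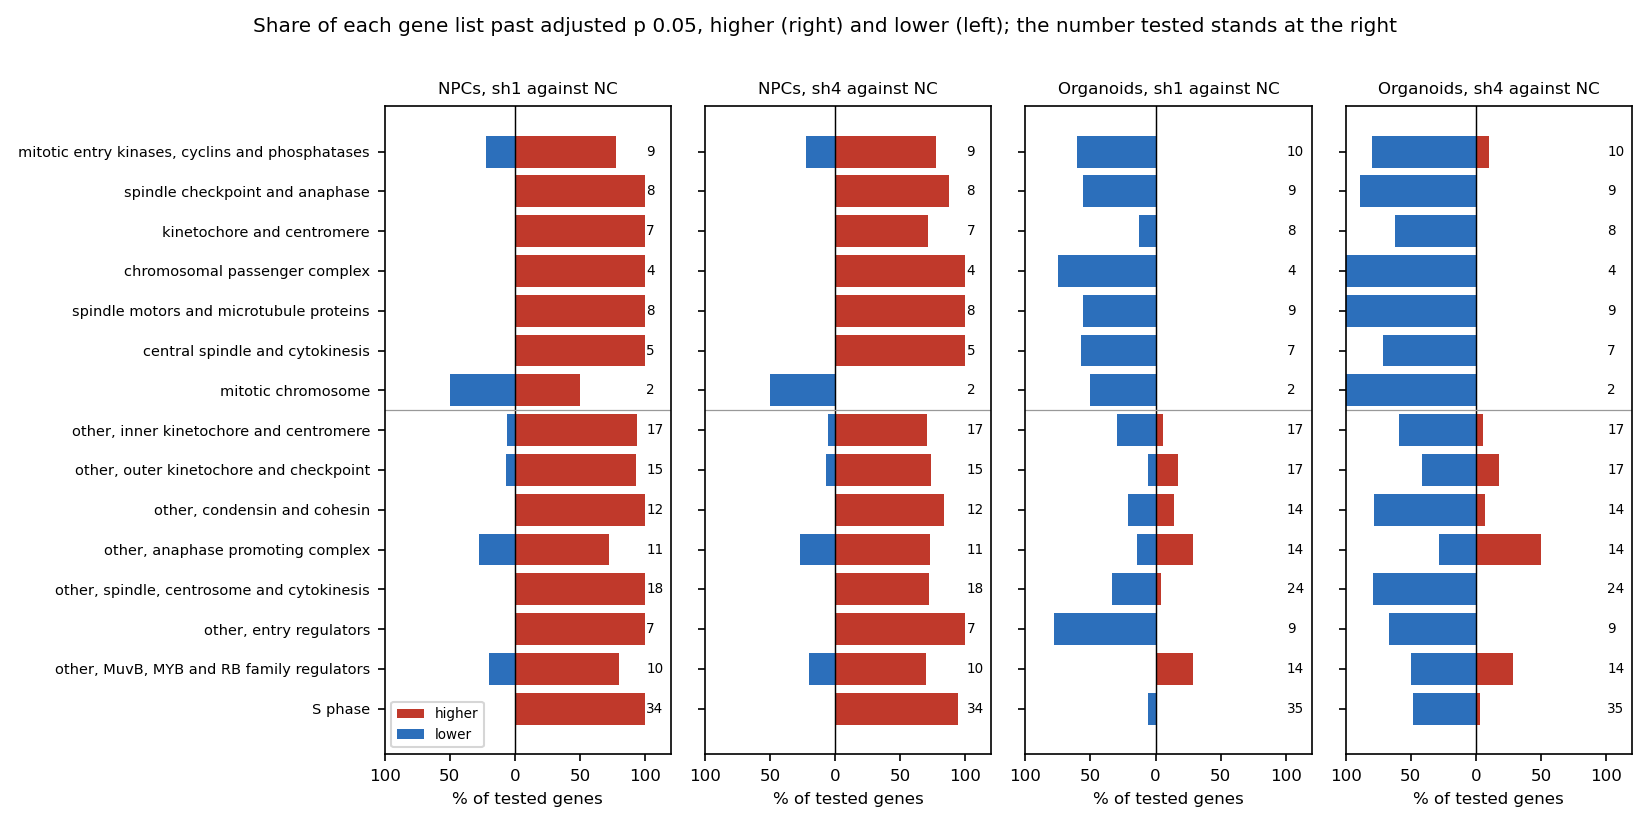
Percent of the tested genes of each list past adjusted p 0.05, higher to the right and lower to the left of 0, for sh1 and sh4 in NPCs and in organoids. The upper lists are the roles described here, the lower ones other lists, and the number of tested genes stands at the right. FOXM1, a role of its own that fell with both hairpins in the NPCs, is not drawn. For the roles drawn, bars point mostly right in the NPC panels and left in the organoid panels, with a short bar to the right for CDC25B with sh4, while the anaphase-promoting complex is divided in all panels.

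Across the members, Spearman's rho between the log2 fold change and the summed length of the exons was -0.372 with sh1 and -0.38 with sh4 in the NPCs over 44 genes, and 0.391 and -0.113 in the organoids over 50, beside -0.0229, -0.0459, -0.0853 and -0.17 over all genes with a length. These are descriptions over genes of the same libraries, which are not independent of each other. Pseudogene and antisense partners had few counts beside the members in the organoid table. CDC20P1 had 39 to 86 counts per library and UBE2CP5 had 40 to 91, while CDC20 and UBE2C had at least 516 and 595. KIF23-AS1 had 8 to 51 and PRC1-AS1 had 4 to 30, and without known strand these cannot be told apart from KIF23 and PRC1. PTTG1 and KIF4A have near-identical copies elsewhere in the genome, so their counts are uncertain where reads were shared.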

How the data were processed

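RNA was selected by its poly(A) tail and sequenced in read pairs, per the labels' protocols. STAR, featureCounts and the build GRCh38.p13 are named in the submitters' processing notes, and versions, settings and strand are not given in the sources used here. Both deposited tables held estimated counts per gene, unscaled by the authors, and 82.4% of values were whole numbers in the NPC table, against 91% in the organoid table. All were rounded here. The edgeR 4.0.16 quasi-likelihood test (R 4.3.3) was fitted to all libraries of a table, after filterByExpr with a minimum count of 10 and TMM scaling, with Benjamini-Hochberg adjustment over all tested genes. For the difference between systems, 1 fit held all libraries and the genes of both tables. Intervals are 95% intervals of the fit. Alternatives were DESeq2 1.42.0, other scalings, no filter, the 2 compared groups only, a replicate block, a fold threshold, and each library left out.

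The labels number the replicates, and numbers were to pair libraries only where every correlation of same-numbered deviations was over 0.1. In the NPCs replicates 1 (0.181 to 0.327) and 5 (0.229 to 0.393) met this, but the others did not (-0.0995 to 0.215), nor did any in the organoids (-0.156 to 0.0352), so libraries were not paired. No 2 libraries of a group agreed within sampling noise. The genes and lists were chosen with earlier results of these data known. Values by library are given for 12 genes chosen by role and for those with the largest changes past a log2 fold change of 1, at most 10 per system, and up to 3 genes of each other list are named by size. The highest and lowest members of each comparison are named too. CDC25B, SPC24 and a few other genes were shown by library after their values were seen. Promoters came from RefSeq and exon lengths from the GRCh38 annotation.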

Additional observations from a re-analysis of the deposited data

Results flagged for a closer look

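In the NPCs, FOXM1 stood at 190.2 CPM in NC replicate 5, apart from the other NC libraries at 222 to 225 CPM and still above every hairpin library. It was the 1 value far from its group among 75 NPC groups looked at, where chance gives about 1 in 20. Organoid groups had too few libraries for this look and were not examined.

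The mean log2 fold change of sh1 and sh4 against NC differed between NPCs and organoids for 23 of 24 genes looked at. This was edgeR's test of the difference itself, by which 38.6% of all genes were higher and 40% lower. The 24 genes were named by role or by large changes, the extremes of this same difference among them. Their count is therefore no measure of the members as a set, which are counted above. A loss of KDM2A was measured in the NPCs and not, by the main scaling, in the organoids. The log2 difference, NPC minus organoid, was 1.80 for CCNA2, 1.78 for DLGAP5, 1.75 for BUB1, 1.65 for AURKA, 1.53 for ECT2, 1.52 for PTTG1, 1.49 for AURKB, 1.46 for MAD2L1, 1.33 for CDC20, 1.27 for CENPA, 1.13 for CCNB1 and 1.02 for CENPE. It was 0.97 for CDK1, 0.86 for ASPM, 0.80 for TOP2A, 0.75 for PLK1, 0.71 for KIF11, 0.64 for ANLN, 0.63 for NDC80, 0.59 for KNL1 and 0.31 for MKI67. It was below 0 for FOXM1, at -0.56, and CDC25B, at -0.69.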

How the results depend on the processing

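Of the counts of members called, 258 of the recomputed values lay within 1.5 times the reported one and 30 did not. Asking also for a log2 fold change of 1 left 1 higher and 0 lower with sh1 and 0 and 0 with sh4 in NPCs, 1 lower with sh1, 0 higher and 12 lower with sh4 in organoids, 0 between sh1 and sh4 in either system, and 25 higher and 0 lower between systems. In the organoids with sh4, 2 genes rose with DESeq2, with relative log expression scaling and with the 2 groups alone. Library size alone gave 28 higher and 1 lower between sh1 and sh4 there. Of the values called under either scaling, 4 changed sign with it: TOP2A with sh1 (-0.00843) and ASPM (-0.00472) and KNL1 (-0.13) with sh4 in NPCs, and KDM2A with sh4 in organoids (-0.27). Another 5, called under neither, changed sign too, ANLN with sh4 in organoids (-0.00458) among them. With each library left out in turn, sh1 against sh4 gave 3 to 11 higher in NPCs, and 7 to 19 higher and 1 to 2 lower in organoids, sh1 gave 18 to 39 lower in organoids, and sh4 gave 1 to 2 higher. The replicate block, which rests on a shared number only, gave 40 higher with sh1 and 36 with sh4 in NPCs, 27 and 41 lower in organoids, and 41 higher between systems. It lost CKAP2 and gained KIF14, INCENP and PBK with sh1 in organoids, and gained DLGAP5 between hairpins in NPCs. The cause of these shifts was not tested. The NPC counts cover listed genes alone.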
